A study of Ovis aries with 19 samples.

Results

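The SLC25 family holds the carrier proteins that move metabolites, nucleotides and cofactors across the inner mitochondrial membrane. Its transcripts were examined in the liver and skeletal muscle of female sheep exposed to excess testosterone before birth and of control sheep. Members were taken by name, as every gene called SLC25A followed by a number whose mean normalized read count was at least 10 in liver or in muscle. The names gave 43 genes and the mean level left 41 carriers, out of 28524 genes in the deposited values. All 41 passed that level in liver and 38 passed it in muscle, where SLC25A45, SLC25A48 and SLC25A53 did not. Just inside the limit were SLC25A53, with means of 15.8 in liver and 7.32 in muscle, and SLC25A35, with 17.2 and 23.6. Just outside were SLC25A41, with 7.60 in liver and 6.35 in muscle, and SLC25A31, with 0.804 and 0.0992.

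The groups were prenatal testosterone-treated females (sheep 48, 63, 185, 233 and 255), with 5 liver and 5 muscle libraries, and untreated control females (sheep 98, 131, 132, 179 and 201), with 4 liver and 5 muscle libraries. No liver library of control sheep 132 was analysed here. The labels name treatment, sex, tissue and sheep, but give no age, breed or dose, so the groups differ in the labels by treatment alone. Each library came from a different animal within its tissue, which makes the sheep the replicate.

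Carriers of this family share one fold of repeated membrane helices and mostly work as exchangers, taking one substrate in as another leaves. They couple the citrate cycle, ATP synthesis, fatty acid oxidation, the urea cycle, heme synthesis and cofactor supply in the matrix to the cytosol. In liver they serve urea and glucose production, and in muscle the exchange of ADP for ATP and the import of phosphate carry the energy supply of contraction.

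Libraries held 10236610 to 16046301 reads assigned to genes in liver and 8455563 to 14331578 in muscle. All 36 pairs of libraries within a group differed by more than counting noise (smallest chi-square over its degrees of freedom 19.4). Liver libraries held 112956 to 1212100 normalized reads of ALB, the plasma albumin of hepatocytes, and muscle libraries at most 16.2. Muscle libraries held 154279 to 304192 of ACTA1, skeletal muscle actin, and liver libraries at most 9.12. One liver library stood apart: of the 4 control livers, that of sheep 179 was the lowest for 21 carriers and the highest for 15, so that it was an extreme for 36 of 41. The other control livers were an extreme for 8 to 23 carriers, and this was not counted over all genes. Sheep 179 was not apart for the family alone. Its chi-square over degrees of freedom across genes was 97.8 to 177.7 with the other control livers, against 72.4 to 84.7 among those. Liver results are therefore also given without sheep 179.

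In liver, no carrier passed the adjusted threshold between treated and control sheep, and 8 carriers lay lower in treated livers at an unadjusted p under 0.05. These were SLC25A45, the acylcarnitine carrier SLC25A20, the liver-enriched SLC25A47, the uncoupling protein relative SLC25A30, the ADP/ATP carrier SLC25A4, the glutamate carrier SLC25A22, the citrate carrier SLC25A1 and the coenzyme A carrier SLC25A42. No carrier lay higher by that rule. The 8 were 19.5% of the 41 carriers, and over all 13640 genes tested in liver 2.17% lay lower and 1.82% higher. After Benjamini-Hochberg adjustment over all genes, 0.00733% of genes were called, which was 1 gene. Across the family 27 carriers had a log2 difference below 0 and 14 above, with a median of -0.17 against 0.0032 over all genes. The family was singled out with earlier results of these data known, so its share is a description and not independent evidence of a direction.

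**Figure D1:**
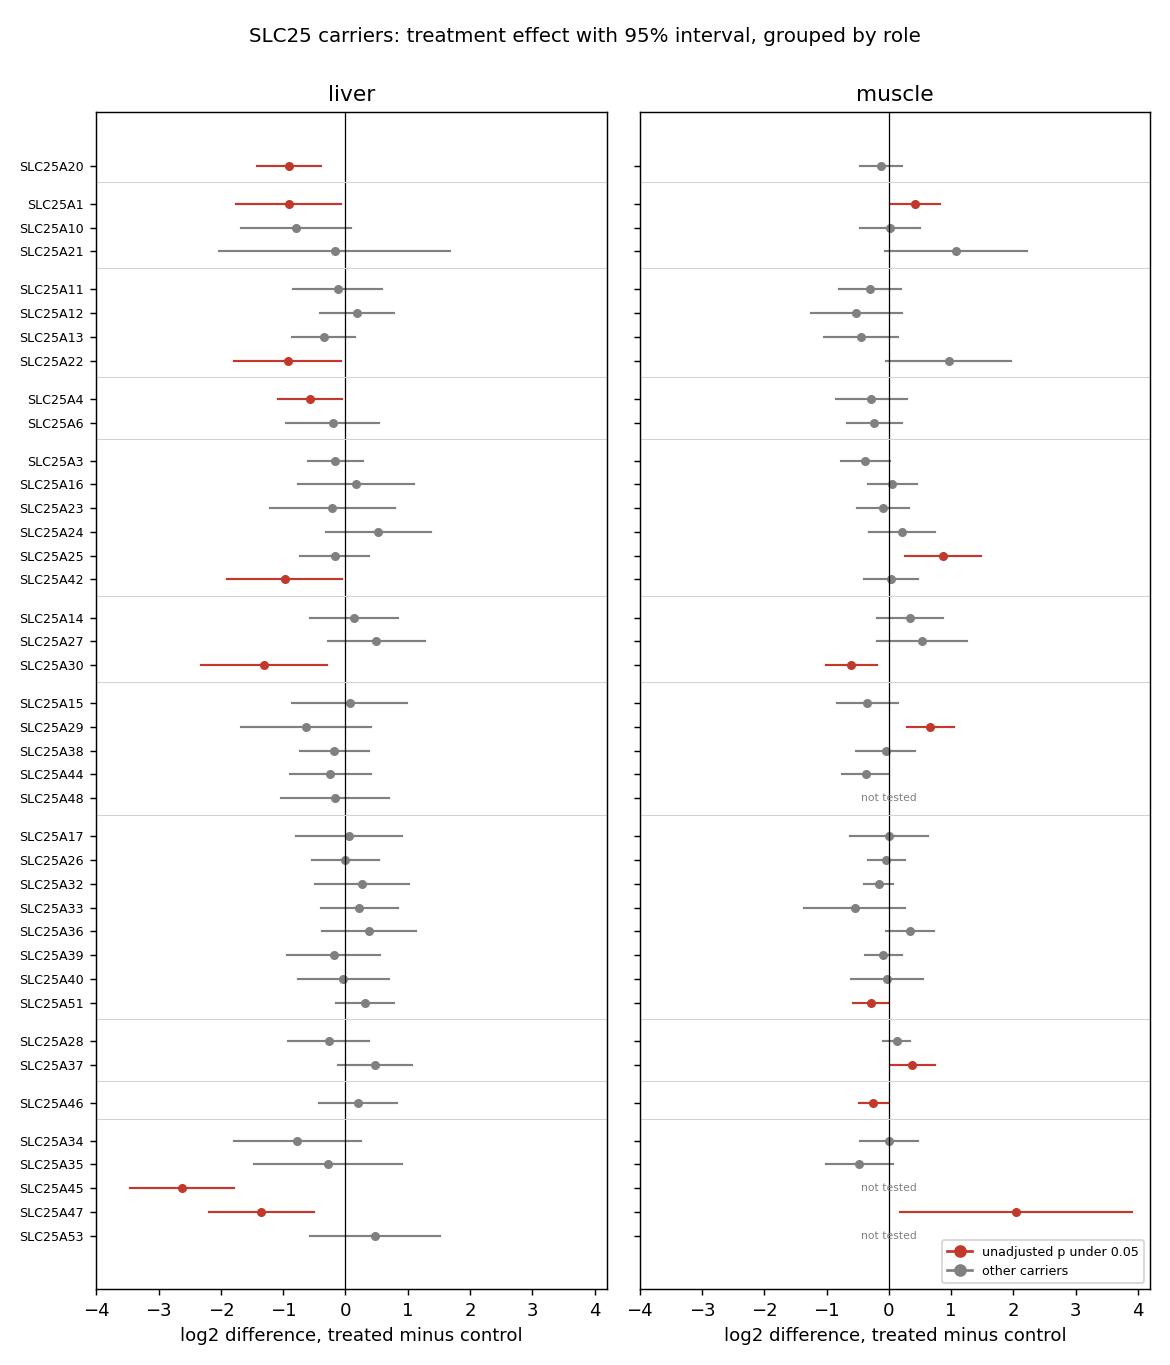
Each point is the difference between treated and control sheep of 1 carrier in liver (left) or muscle (right), as log2(normalized read count + 1), with its 95% interval from limma; carriers are grouped by role with a line between roles, and 1 carrier is not shown. The 8 red points in liver all lie left of 0, and the 8 red points in muscle lie on both sides, 5 to the right and 3 to the left.

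SLC25A45 had the largest difference in liver. It read 11.8, 14.1, 5.15, 9.63 and 19.5 in treated sheep 48, 63, 185, 233 and 255, against 69.8, 80.4, 87.9 and 60.1 in control sheep 98, 131, 179 and 201. Every treated liver was below every control liver, and the highest treated value was under the lowest control value by a wide gap. The means were 12.04 ± 5.32 (SD, n = 5) in treated and 74.6 ± 12.2 (SD, n = 4) in control livers, which rest on 55 and 351 reads in all. The log2 difference was -2.63 ± 0.38 (SE), with an adjusted p of 0.114 in limma. On the recovered reads DESeq2 gave an adjusted p of 2.23e-07, edgeR's quasi-likelihood test gave 0.0762, and limma with array weights gave 0.0225. At the adjusted threshold DESeq2 called 32 of 13640 genes in liver, and limma with array weights 2. Leaving out 1 library at a time, the log2 difference stayed between -2.82 and -2.38 and limma's adjusted p between 0.0570 and 0.645.

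SLC25A20 brings acylcarnitines into the matrix for fatty acid oxidation in exchange for carnitine. It read 778, 799, 536, 745 and 495 in treated livers in the same order of sheep, against 1331, 1316, 1411 and 929 in control livers. The groups did not overlap, although control sheep 201 lay nearer to the treated animals than the other controls did. The means were 671 ± 144 (SD, n = 5) in treated and 1247 ± 216 (SD, n = 4) in control livers, a log2 difference of -0.90 ± 0.24 (SE) with an adjusted p of 0.865 in limma. In the sheep gene table this carrier overlaps LOC105603546, as SLC25A51 overlaps LOC132659163 and SLC25A23 overlaps SLC25A41, and without a known strand setting reads of such overlaps cannot be told apart.

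SLC25A47, a carrier known in human and mouse for its restriction to liver, took the most reads of the family there. It read 2709.9, 5463, 2758, 2099 and 1255 in treated livers, against 6934, 7318, 3993 and 8768 in control livers. The groups overlapped because treated sheep 63 was above control sheep 179, while the other 4 treated livers were below all controls. The log2 difference was -1.35 ± 0.39 (SE), with an adjusted p of 0.865 in limma.

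SLC25A30 belongs with the brain-type uncoupling protein relatives, as do SLC25A14 and SLC25A27. It read 2027, 1684, 727, 344 and 1562 in treated livers, against 2372, 2397, 3776 and 2235 in control livers. The groups did not overlap, sheep 185 and 233 were far below the other treated animals, and control sheep 179 was far above the other controls. The log2 difference was -1.31 ± 0.46 (SE), with an adjusted p of 0.999 in limma, and -1.14 without control sheep 179, where its unadjusted p was still under 0.05. SLC25A14 and SLC25A27 had 33.8 ± 8.54 and 36.0 ± 6.94 (SD, n = 5) in treated livers, against 30.5 ± 6.87 and 26.7 ± 11.9 (SD, n = 4) in control livers, both with overlapping groups.

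SLC25A20, SLC25A30 and SLC25A45 were the 3 carriers whose treated livers all lay below all control livers, while 0.682% of all genes tested in liver showed this and 0.858% showed the opposite, as no carrier did. The 8 carriers were picked for their difference on these same values, so an exact permutation test of them is no further support. In that two-sided exact test SLC25A22, SLC25A1 and SLC25A42 missed 0.05, with p = 0.0952 each. SLC25A45, SLC25A20, SLC25A47 and SLC25A30 kept an unadjusted p under 0.05 in all 9 fits that leave out 1 liver library. The other 4 did not: SLC25A4 kept it in 4 of those fits, and SLC25A22, SLC25A1 and SLC25A42 in 3 each.

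**Figure D2:**
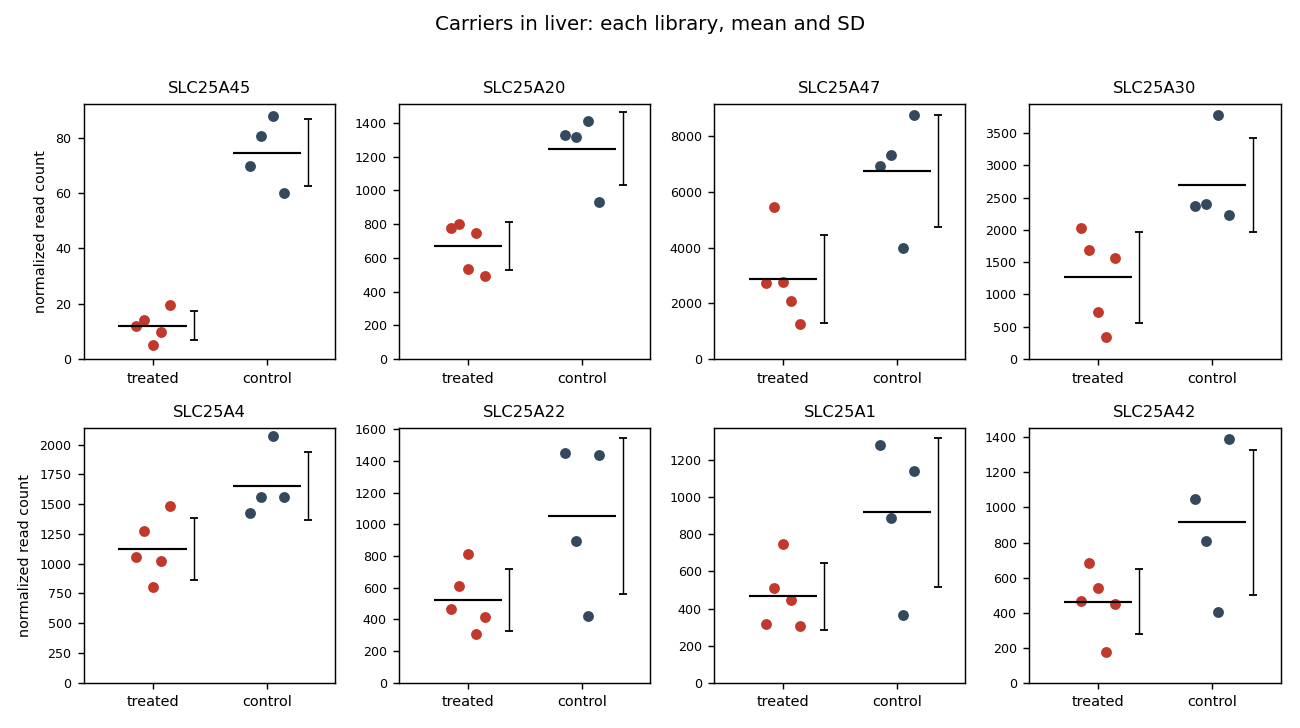
Normalized read counts of the 8 carriers with an unadjusted p under 0.05 in liver; each point is 1 library, treated sheep in red and control sheep in dark blue, the line is the mean and the bar beside it the SD. For SLC25A45, SLC25A20 and SLC25A30 no treated point reaches a control point, while in SLC25A22, SLC25A1 and SLC25A42 control sheep 179 falls among the treated animals.

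The citrate group gave the widest split between control animals. SLC25A1, which exports citrate for lipid synthesis, read 317, 509, 749, 443 and 307 in treated livers, against 1277, 888, 365 and 1139.6 in control livers. Only control sheep 179 overlapped the treated range. SLC25A10, the dicarboxylate carrier that exchanges malate or succinate for phosphate, read 175, 158, 152, 133 and 135 in treated livers, against 496, 279.9, 91.2 and 356 in control livers. Here sheep 179 was below all treated livers and the other 3 controls were above them. The log2 differences were -0.91 ± 0.39 (SE) for SLC25A1 and -0.79 ± 0.41 (SE) for SLC25A10 with all libraries, both with an adjusted p of 0.999 in limma. Without sheep 179 they were -1.31 and -1.29, with adjusted p of 0.485 and 0.436. SLC25A21, which carries oxodicarboxylates of lysine breakdown, had the largest spread of the family in liver, from 18.5 to 376 in treated and from 24.6 to 244 in control livers.

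Of the malate-aspartate and glutamate group, SLC25A22 read 463, 614, 816, 306 and 415 in treated livers, against 1452, 894, 422 and 1439 in control livers. Again sheep 179 was the control inside the treated range, and the log2 difference was -0.93 ± 0.39 (SE, adjusted p = 0.999 by limma), or -1.32 without it (adjusted p = 0.485). The aspartate-glutamate carrier SLC25A13, a part of both the malate-aspartate shuttle and the urea cycle, had 1231 ± 245 (SD, n = 5) in treated and 1570 ± 339 (SD, n = 4) in control livers. Its paralog SLC25A12 had 52.9 ± 11.3 and 45.8 ± 5.53, and the oxoglutarate carrier SLC25A11 had 210.1 ± 58.3 and 236 ± 83.5. Treated and control ranges overlapped for these 3 carriers, and none had an unadjusted p under 0.05.

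SLC25A4, the ADP/ATP carrier of heart and muscle, read 1053, 1271, 801, 1019 and 1485 in treated livers, against 1429, 1559, 2075 and 1556 in control livers. The groups met only where treated sheep 255 passed control sheep 98, with a log2 difference of -0.57 ± 0.24 (SE, adjusted p = 0.999 by limma). Without control sheep 179 its unadjusted p was no longer under 0.05. Summed normalized counts of 6 skeletal fibre markers in these livers were 15.0 to 29.9 in treated and 42.7 to 117 in control sheep, and their part in this difference was not tested. The same 6 markers summed to at least 716048 in muscle, where SLC25A4 averaged 17870.3. SLC25A6, the ADP/ATP carrier of most tissues, had 444 ± 174 (SD, n = 5) in treated and 504 ± 172 (SD, n = 4) in control livers. These paralogs are close in sequence, and how reads that fit both were counted is not given in the sources used here.

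In the phosphate and adenine nucleotide group, the coenzyme A carrier SLC25A42 read 467, 681, 539, 173 and 451 in treated livers, against 1051, 812, 404 and 1392 in control livers. Sheep 179 was again the one control within the treated range, and the log2 difference was -0.98 ± 0.43 (SE, adjusted p = 0.999 by limma), or -1.32 without it (adjusted p = 0.522). The phosphate carrier SLC25A3, which feeds ATP synthase, had the smallest spread of the family in liver, with 1109 ± 131 (SD, n = 5) in treated and 1246 ± 193 (SD, n = 4) in control livers. The ATP-Mg/phosphate carriers SLC25A23, SLC25A24 and SLC25A25 had log2 differences of -0.21, 0.53 and -0.17, none with an unadjusted p under 0.05.

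The remaining roles held no carrier under an unadjusted p of 0.05 in liver. The 5 carriers grouped here under ornithine and other amino acids, SLC25A48 among them, had log2 differences from -0.63 to 0.07. Among them SLC25A15, the ornithine carrier of the urea cycle, ran from 303 to 1703 in treated livers and from 639 to 835 in control livers, so that its treated range enclosed the control range. The 9 carriers of nucleotides and cofactors had 4 differences below 0 and 5 above, from -0.19 to 0.37. SLC25A51, the NAD carrier, had 314 ± 38.9 (SD, n = 5) in treated and 254 ± 44.9 (SD, n = 4) in control livers, with overlapping groups. The iron importers SLC25A28 and SLC25A37 had 1577 ± 540 and 508 ± 104 (SD, n = 5) in treated livers, against 1861 ± 465 and 376 ± 113 (SD, n = 4) in control livers. SLC25A46, an outer membrane member linked to mitochondrial shape, had 678 ± 152 in treated and 612 ± 221 in control livers.

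**Figure D3:**
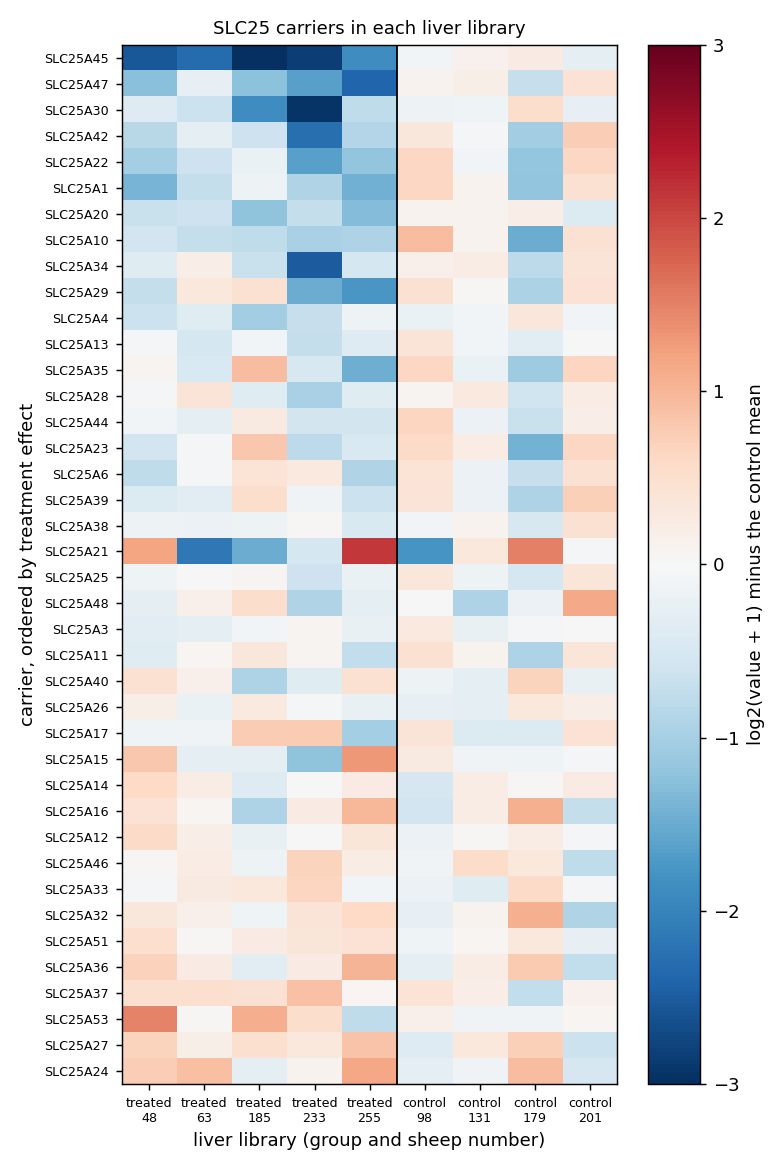
Each cell is the log2(normalized read count + 1) of 1 carrier in 1 liver library minus the mean of the 4 control livers, with carriers ordered by treatment effect and colours ending at 3 above or below; 1 carrier is not shown. SLC25A45 is below the control mean in all 5 treated livers, and the column of control sheep 179 differs from the other control columns in most carriers.

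Without control sheep 179, 8 carriers lay lower in treated livers at an unadjusted p under 0.05 and 2 lay higher, the ATP-Mg/phosphate carrier SLC25A24 (log2 difference 0.83) and the folate and FAD carrier SLC25A32 (0.62), both with an adjusted p of 0.570 in limma. SLC25A10 joined the lower carriers and SLC25A4 left them. Over all 13641 genes tested without that library, 613 lay lower and 543 higher, against 296 and 248 of 13640 with it. No carrier passed the adjusted threshold without it, the smallest adjusted p being 0.404 for SLC25A45. The count of lower carriers was 4 without treated sheep 48, treated sheep 233 or control sheep 131. It was 5 when the library left out was that of treated sheep 255, control sheep 98 or control sheep 201. Over all genes, 273, 235 and 234 lay lower in the fits with 4, and 304, 195 and 250 in those with 5. With all libraries 296 did.

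The normalized counts of all 41 carriers summed to 20509 ± 3204 (SD, n = 5) in treated and 29799 ± 4125 (SD, n = 4) in control livers, a ratio of 0.688. Single livers ran from 16179 to 24887 in treated and from 24177 to 33368 in control sheep, and the lowest control was sheep 179. The carriers took 0.169% ± 0.032 of all reads in treated and 0.270% ± 0.061 in control livers, and SLC25A47 alone took 13.5% ± 5.49 of the family's reads in treated and 22.3% ± 4.36 in control livers. Without SLC25A47 the sums were 17652 ± 2085 and 23046 ± 2401, a ratio of 0.766. These sums weigh each gene by its reads, not per length, and in whole tissue fewer cells of a type and less RNA per cell cannot be told apart.

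In muscle, no carrier passed the adjusted threshold, and at an unadjusted p under 0.05 5 carriers lay higher in treated muscle and 3 lower. The higher ones were the basic amino acid carrier SLC25A29, the ATP-Mg/phosphate carrier SLC25A25, SLC25A47, the citrate carrier SLC25A1 and the iron importer SLC25A37. The lower ones were SLC25A30, SLC25A46 and the NAD carrier SLC25A51. These were 13.2% and 7.89% of 38 carriers, and over all 12966 genes tested in muscle 7.37% lay higher and 7.0% lower, so the share of lower carriers was near that of all genes. The adjusted test called 0.00771% of genes, which was 1 gene. Under TMM scaling of the reads the split was 5 higher and 1 lower. Over all genes it was 1053 higher and 750 lower there. The median log2 difference of the family was -0.05 against -0.01 over all genes, with 23 carriers below 0 and 15 above, and in no carrier were the treated and control ranges apart, as they were for 1.76% of all genes upwards and 1.53% downwards.

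SLC25A29 read 264, 265, 319, 177 and 261 in treated muscle of sheep 48, 63, 185, 233 and 255, against 177, 147, 201, 125 and 156 in control muscle of sheep 98, 131, 132, 179 and 201. Only treated sheep 233 reached into the control range, and the other 4 treated animals were above all controls. The means were 257 ± 50.9 and 161 ± 29.0 (SD, n = 5 each), a log2 difference of 0.66 ± 0.17 (SE) with an adjusted p of 0.163 in limma. DESeq2 on the recovered reads gave an adjusted p of 0.0297, and edgeR's quasi-likelihood test gave 0.143. At the adjusted threshold DESeq2 called 252 of 12966 genes in muscle.

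SLC25A25 read 836, 1803, 1272, 1402 and 1158 in treated muscle, against 1045, 1068, 716, 513 and 365 in control muscle. Treated sheep 48 lay within the control range and the other 4 lay above it, with a log2 difference of 0.87 ± 0.28 (SE) and an adjusted p of 0.209 in limma. SLC25A30 read 1305, 838, 727, 1253 and 1184 in treated muscle, against 1936, 1676, 1129.9, 1777 and 1482 in control muscle. Control sheep 132 lay within the treated range and the other 4 controls lay above it, with a log2 difference of -0.61 ± 0.19 (SE) and an adjusted p of 0.197 in limma. SLC25A30 thus had treated means below control means in both tissues.

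SLC25A47 was low in muscle, with 70.0, 94.7, 159.9, 11.1 and 58.3 in treated animals, against 7.94, 58.5, 53.9, 1.16 and 9.57 in control animals. The groups overlapped, with treated sheep 185 the highest of all 10 and control sheep 179 the lowest, and the log2 difference was 2.04 ± 0.86 (SE, adjusted p = 0.311 by limma). The summed hepatocyte markers in the same muscles were 35.9 to 153 in treated and 48.6 to 124 in control animals, with ALB at most 16.2, while in liver those markers summed to at least 837492. In the sheep gene table SLC25A47 and SLC25A29 are direct neighbours, and sheep 185 had the highest value of both in treated muscle. The 2 genes do not overlap in that table, and whether reads were shared between them was not tested.

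SLC25A1 read 251, 158, 191, 156 and 158 in treated muscle, against 163, 173, 102, 122 and 124 in control muscle, and SLC25A37 read 1692, 1477, 1340.45, 1101 and 2173, against 1405, 1074, 1035, 1162 and 1200.4. SLC25A46 read 926, 975, 845, 960.0 and 1090.3 in treated muscle, against 1227, 1151, 1049.6, 1036 and 1233 in control muscle. A second entry of the files named SLC25A37_1, outside the naming rule, had 137.7 ± 27.2 in treated and 112.8 ± 16.6 in control muscle (SD, n = 5 each). In SLC25A1, SLC25A37 and SLC25A46 treated and control animals overlapped, with log2 differences of 0.42, 0.38 and -0.25 and adjusted p of 0.330, 0.330 and 0.329 in limma. SLC25A51 read 399.8, 369, 366, 348 and 539 in treated muscle, against 499, 456, 523, 482 and 489 in control muscle, a log2 difference of -0.29 (adjusted p = 0.333 by limma). Treated sheep 255 was the highest of all 10 animals for SLC25A51 and the other 4 treated animals were below all controls.

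**Figure D4:**
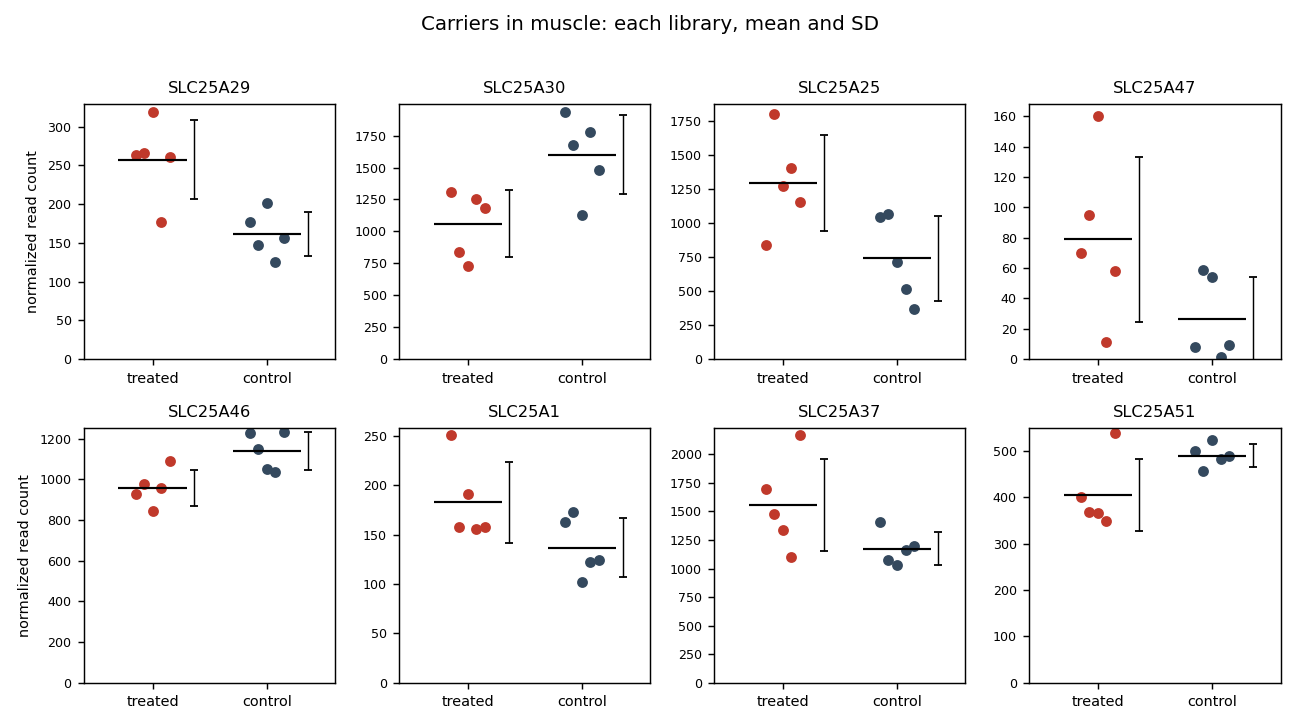
Normalized read counts of the 8 carriers with an unadjusted p under 0.05 in muscle; each point is 1 library, treated sheep in red and control sheep in dark blue, the line is the mean and the bar beside it the SD, cut at 0 for SLC25A47 in control sheep. Treated and control points overlap in all 8 carriers, by 1 animal of either group in SLC25A29, SLC25A25 and SLC25A30.

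The 8 carriers of muscle were likewise picked on these values. In the exact two-sided permutation test 3 of them missed 0.05, SLC25A47 with p = 0.0635 and SLC25A1 and SLC25A37 with p = 0.0794 each. SLC25A29, SLC25A30 and SLC25A25 kept an unadjusted p under 0.05 in all 10 fits that leave out 1 muscle library. The other 5 kept it in 2 to 5 of those fits. The count of higher carriers was 2 without control sheep 179 or treated sheep 48 and 3 without control sheep 132. Over all genes, 903, 781 and 859 lay higher in these fits, against 955 with all libraries. The count of lower carriers was 1 without control sheep 98 or treated sheep 48, 185 or 233. Over all genes, 650, 651, 682 and 821 lay lower in these fits, against 907 with all libraries.

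By role, all 3 carriers of the citrate and dicarboxylate group had log2 differences above 0 in muscle, from 0.01 to 1.08, where all 3 were below 0 in liver. Of the 9 carriers of nucleotides and cofactors 8 were below 0 in muscle, from -0.55 to -0.0017 in those 8, and the pyrimidine nucleotide carrier SLC25A36 was at 0.34. Of the 4 malate-aspartate and glutamate carriers 3 were below 0 and SLC25A22 was at 0.96, with 19.03 ± 9.65 in treated and 10.01 ± 6.67 in control muscle (SD, n = 5 each). Both uncoupling protein relatives other than SLC25A30 were above 0, at 0.34 for SLC25A14 and 0.53 for SLC25A27. None of these members other than SLC25A1, SLC25A30 and SLC25A51 had an unadjusted p under 0.05.

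The most read carriers of muscle had treated means below control means without an unadjusted p under 0.05. SLC25A4 took 35.1% ± 6.64 of the family's reads in treated and 37.0% ± 2.22 in control muscle (SD, n = 5 each), and its log2 difference was -0.28 ± 0.26 (SE, adjusted p = 0.664 by limma). SLC25A3 had 6823 ± 1120 in treated and 9013 ± 2154 in control muscle, a log2 difference of -0.38 (adjusted p = 0.356 by limma). SLC25A12 had 1928 ± 1036 and 2695 ± 1168 (-0.52, adjusted p = 0.505 by limma), and SLC25A34 had 6206 ± 1259 and 6347 ± 2139, close to equal on the log2 scale. The family's counts summed to 45580 ± 9414 in treated and 51878 ± 11911 in control muscle, a ratio of 0.879 with overlapping groups, and its share of all reads was 0.435% ± 0.058 and 0.430% ± 0.078. Of the low carriers, SLC25A21 read 42.6, 7.28, 13.8, 51.1 and 48.5 in treated muscle, against 15.9, 7.58, 7.70, 9.29 and 24.6 in control muscle. Treated sheep 48, 233 and 255 were above all controls and treated sheep 63 was below them, with an adjusted p of 0.376 in limma. SLC25A28 and SLC25A32 varied least in muscle, with SLC25A28 at 513 ± 39.7 in treated and 470 ± 9.53 in control animals.

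The treatment effect was then compared between the tissues. Of the 38 carriers measured in both, 16 had a log2 difference below 0 in both tissues, 6 above 0 in both, 9 below 0 in liver and above in muscle, and 7 the reverse. No carrier passed the adjusted threshold for liver effect minus muscle effect, by a limma fit of 19 libraries that called 0.00855% of 11697 genes. At an unadjusted p under 0.05 the liver effect lay below the muscle effect for 7 carriers and above it for 1, against 2.56% and 2.34% of all genes. For SLC25A47 the liver effect of -1.35 and the muscle effect of 2.04 differed by -3.39 ± 1.06 (SE, adjusted p = 0.763 by limma). SLC25A22 had effects of -0.93 in liver and 0.96 in muscle, which differed by -1.89 ± 0.61 (SE), and SLC25A1 had -0.91 and 0.42, which differed by -1.33 ± 0.43 (SE). SLC25A20 had -0.90 in liver and -0.13 in muscle, with a difference of -0.78 ± 0.27 (SE). SLC25A25, SLC25A29 and SLC25A42 differed by -1.05, -1.29 and -1.01 in the same direction, and SLC25A51 differed by 0.61 in the other. The adjusted p of the 8 carriers in limma was between 0.763 and 0.973. Without control sheep 201 the liver effect lay below the muscle effect for 4 carriers in place of 7. It lay above for 3 carriers without control sheep 179 and for 2 without treated sheep 63, in place of 1. Over all genes the liver effect lay below for 205 without control sheep 201, in place of 299. It lay above for 722 genes without control sheep 179 and for 304 without treated sheep 63, in place of 274.

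Between the tissues themselves most carriers differed. Levels are given as TMM-scaled CPM, in which reads are divided by the library size times a TMM factor. Differences are liver minus muscle with treatment as a covariate. By this fit 27 of 38 carriers passed the adjusted threshold, 13 higher in liver and 14 lower. These were 71.1% of the carriers, near the 75.1% of all 11697 genes tested, of which 35.6% were higher in liver and 39.5% lower. The label descriptions number the liver and the muscle libraries in separate runs and do not say whether they were prepared together, so tissue and any difference in preparation cannot be told apart.

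The carriers higher in liver were led by SLC25A47, with 434 ± 258 CPM (SD, n = 9) in liver and 4.34 ± 4.11 (SD, n = 10) in muscle, a log2 difference of 6.51 ± 0.45 (SE, adjusted p = 6.55e-12 by limma). The glutamate carrier SLC25A22 followed with 71.8 ± 43.2 in liver and 1.1997 ± 0.765 in muscle, then SLC25A13 with 130 ± 33.6 and 7.85 ± 2.91, and SLC25A15 with 74.2 ± 37.4 and 5.63 ± 1.49. SLC25A13 and SLC25A15 both serve the urea cycle. The iron importer SLC25A28, the citrate carrier SLC25A1, the dicarboxylate carrier SLC25A10 and SLC25A29 were also higher in liver, with liver ranges above muscle ranges.

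The carriers lower in liver were led by SLC25A12, with 4.64 ± 0.798 CPM in liver and 190.1 ± 91.0 in muscle, a log2 difference of -4.94 ± 0.22 (SE, adjusted p = 1.14e-15 by limma). SLC25A34 had 36.4 ± 16.4 in liver and 517 ± 135 in muscle, and SLC25A4 had 128 ± 35.9 and 1472 ± 462. The oxoglutarate carrier SLC25A11 had 20.9 ± 6.70 in liver and 135 ± 41.0 in muscle, and the phosphate carrier SLC25A3 had 109.8 ± 18.2 and 652 ± 160. Liver ranges lay below muscle ranges in each of these 5.

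Some paralogs of the same substrate went in opposite directions between the tissues, and others went the same way. The aspartate-glutamate carriers SLC25A13 and SLC25A12 had log2 differences of 3.94 and -4.94, and the iron importers SLC25A28 and SLC25A37 had 1.90 and -1.44, all past the adjusted threshold. SLC25A4 had -3.48, while SLC25A6, its ubiquitous paralog, had 44.3 ± 16.3 in liver and 60.4 ± 17.5 in muscle, a log2 difference of -0.47 (adjusted p = 0.0362 by limma) with overlapping ranges. The pyrimidine nucleotide carriers SLC25A33 and SLC25A36 were both lower in liver, at -1.98 and -1.68. The glutathione carriers SLC25A39 and SLC25A40 were both higher, at 0.70 and 1.65.

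**Figure D5:**
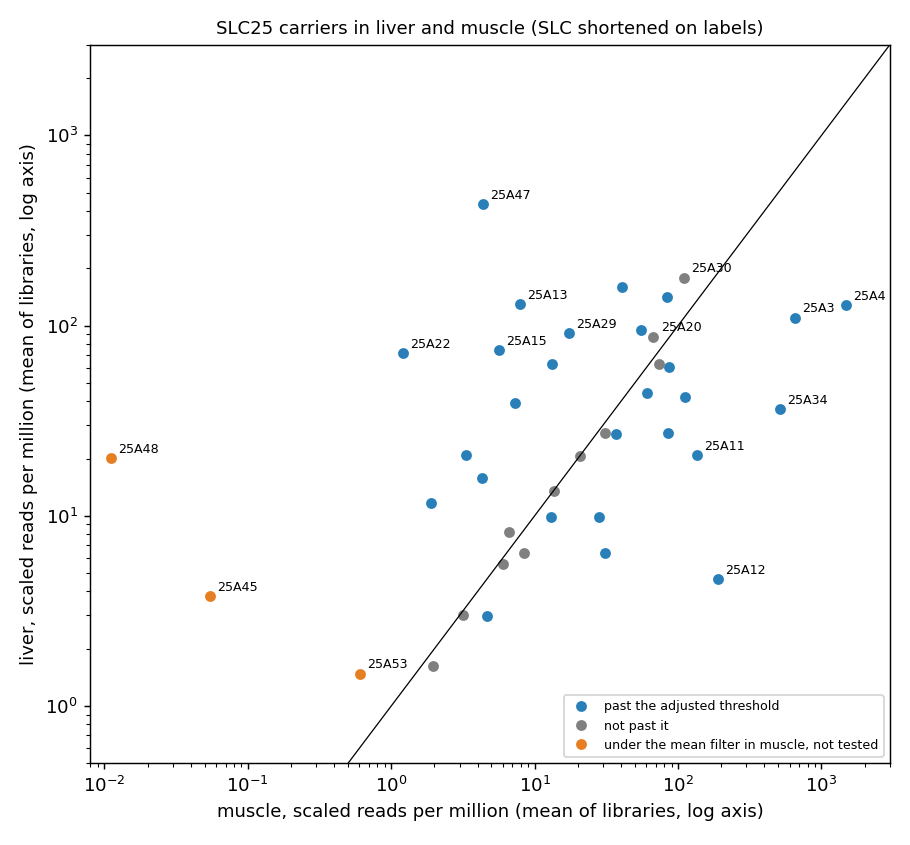
Mean TMM-scaled CPM of each carrier over 9 liver libraries (vertical) and 10 muscle libraries (horizontal), both axes log; the line marks equal levels, blue points passed the adjusted threshold, and orange points were under the mean limit in muscle and not tested. SLC25A47 lies far above the line and SLC25A12 far below it.

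Among the 11 carriers past the filter in both tissues but not called were SLC25A20, SLC25A30, SLC25A32, SLC25A42 and SLC25A44. SLC25A44, which carries branched-chain amino acids, had 20.7 ± 7.23 in liver and 20.7 ± 4.47 in muscle. SLC25A45 and SLC25A48 were chosen through liver alone and get no test. SLC25A48 had 20.02 ± 10.4 CPM in liver and 1 read in all 10 muscle libraries together, and SLC25A45 had 3.78 ± 3.25 in liver and 7 reads in muscle. Scaling by library size alone gave 12 carriers higher and 17 lower in liver, with a median log2 difference of all genes of -0.29 in place of -0.06. With control libraries only, 15 carriers were higher and 11 lower, so more carriers were higher than lower in that fit and the reverse with all libraries.

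Variation between animals of a group was close to that of other genes. The residual SD on the log2 scale had a median over carriers of 0.574 in liver against 0.519 over all genes, and of 0.353 in muscle against 0.306. The most variable carriers were SLC25A21 in liver, at 1.62, and SLC25A47 in muscle, at 1.73. The least variable were SLC25A3 in liver, at 0.189, and SLC25A28 in muscle, at 0.0823.

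Genes that work beside the carriers were taken from lists, and none passed the adjusted threshold in either tissue. Of 9 genes of the carnitine shuttle around SLC25A20, 7 had log2 differences below 0 in liver and 4 had an unadjusted p under 0.05, with a list median of -0.54. Over all genes in liver 49.6% were below 0, 2.17% lay lower by that rule, and the median was 0.0032. SLC22A5, which brings carnitine into the cell, had 292 ± 159 (SD, n = 5) in treated and 635 ± 167 (SD, n = 4) in control livers (log2 difference -1.23, adjusted p = 0.865 by limma). CPT1B, a carnitine palmitoyltransferase of the outer membrane, had 116 ± 27.4 and 195 ± 38.1 (-0.76, adjusted p = 0.976 by limma), with every treated liver below every control liver. CPT1A, its liver form, and CPT2, the inner membrane enzyme, had log2 differences of -0.61 and -0.56, both with overlapping groups. For the lists in muscle, the same shares over all genes were 51.6% below 0 and 7.0% lower, with a median of -0.01. In muscle 4 of the 8 genes tested on the carnitine shuttle list were below 0 and 4 above, with 1 under an unadjusted p of 0.05, TMLHE of carnitine synthesis at -0.61.

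ME1, the cytosolic malic enzyme that uses malate once it has left the mitochondrion, had 32.7 ± 16.8 (SD, n = 5) in treated and 135 ± 95.1 (SD, n = 4) in control livers, a log2 difference of -1.77 with an adjusted p of 0.877 in limma and overlapping groups. It was the one gene of 6 under an unadjusted p of 0.05 on the list of enzymes that use exported citrate and malate, 5 of which were below 0. GOT2, the mitochondrial aspartate aminotransferase of the malate-aspartate shuttle, had log2 differences of -0.64 in liver and -0.51 in muscle, with adjusted p of 0.999 and 0.308 in limma. All 7 genes of the list of malate-aspartate and glycerol phosphate shuttle enzymes were below 0 in muscle, against 51.6% of all genes, and 2 were under an unadjusted p of 0.05, against 7.0% of all genes, the other being glutamate dehydrogenase GLUD1. The 6 urea cycle enzymes had log2 differences from -0.50 to 0.48 in liver, and none was under an unadjusted p of 0.05.

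UCP3, an uncoupling protein of the same fold whose name lies outside the naming rule, had 2450 ± 747 in treated and 4571 ± 909 in control muscle (SD, n = 5 each), and no treated animal reached a control. Its log2 difference was -0.94 ± 0.23 (SE), with an adjusted p of 0.149 in limma, and DESeq2 on the recovered reads gave an adjusted p of 0.0162. SFXN5, a sideroflexin of the mitochondrial membrane, had 62.1 ± 10.7 in treated and 37.9 ± 10.2 in control muscle (log2 difference 0.73, adjusted p = 0.197 by limma), again with no overlap.

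In the heme and iron-sulphur list around the iron importers, 7 of 9 genes were below 0 in muscle and 3 were under an unadjusted p of 0.05, against 51.6% and 7.0% of all genes. Among these were the glutaredoxin GLRX5 (log2 difference -1.08, adjusted p = 0.270 by limma) and ferrochelatase FECH (-0.37). In liver none of the 9 was. All 14 citrate cycle enzymes were below 0 in muscle, against 51.6% of all genes, with a median of -0.36 against -0.01 and 3 under an unadjusted p of 0.05, the succinyl-CoA ligase subunit SUCLG2, citrate synthase CS and the oxoglutarate dehydrogenase subunit OGDH. Of 14 ATP synthase subunits tested in muscle 12 were below 0, with a median of -0.13, and the 1 under an unadjusted p of 0.05, ATP5MC2, was a share close to the 7.0% of all genes. In liver the medians of these lists were -0.05 and -0.0046. The 16 outer membrane pores and import proteins and the regulators of mitochondrial genes had no member under an unadjusted p of 0.05 in either tissue. Of the pyruvate carriers, sideroflexins and other inner membrane transporters none of 17 had one in liver, and 2 of 15 were higher and 2 lower in muscle.

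Markers of other cells were summed in the same libraries. Over all genes in liver, 1.82% lay higher and 2.17% lower at an unadjusted p under 0.05. In liver the summed T and NK cell markers were 286 to 535 in treated and 201 to 304 in control sheep, with 2 of 7 tested markers higher at an unadjusted p under 0.05. The summed B cell markers were 24.8 to 42.4 and 60.0 to 100.3. The summed adipocyte markers were 102.0 to 302 and 219.8 to 519, with 3 of 4 tested adipocyte markers lower. ADIPOQ reached at most 1.18 and LEP at most 3.34 in liver, so this sum came mostly from FABP4, CIDEC, PLIN1 and LPL. Whether adipocytes themselves differed in liver was not tested. The hepatocyte sum overlapped, at 853396 to 2040920 in treated and 837492 to 1701190 in control livers, with none of 5 markers under an unadjusted p of 0.05. In muscle the fibre sum was 716048 to 1470180 in treated and 1396330 to 1661320 in control sheep. There 3 of 5 tested adipocyte markers were lower at an unadjusted p under 0.05, against 7.0% of all genes. Macrophage, endothelial, fibroblast and cholangiocyte markers had none under that p in either tissue. No list had a marker past the adjusted threshold, and the part of these cells in the carriers' differences was not tested.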

How the data were processed

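Total RNA of liver and muscle was made into TruSeq libraries, per the labels' protocols, and processed with Trimmomatic, STAR and featureCounts 1.6.1, per the submitters' processing notes. What genome build and strand setting were used, and how shared reads were treated, is not given in the sources used here. Each deposited value is a normalized signal per gene, and the values show it to be a read count divided by a median-of-ratios size factor within each tissue: 100% came out as whole reads within 0.01 read. Carriers were taken from 28524 genes; the members and lists were chosen with earlier results of these data known. All 41 symbols matched the NCBI RefSeq gene table of assembly ARS-UI_Ramb_v3.0, used for neighbours only. Tests were limma 3.58.1 (R 4.3.3, mean-variance trend) on log2(value + 1) for genes with a mean of at least 10, adjusted by Benjamini-Hochberg at 0.05 over all genes tested; the pseudocount understates changes of low genes. Tissue differences used TMM-scaled CPM plus 1. As alternatives, DESeq2 1.42.0 and edgeR 4.0.16 were run on the recovered reads. The procedure was tested on simulated counts. Both tissues came from the same animal, so sheep numbers pair libraries: deviations correlated at 0.103 to 0.349 within 9 sheep, and 7 of 9 sheep correlated best with themselves. Carriers named are those with an unadjusted p under 0.05 and the 5 largest tissue differences each way, and partners with the smallest p of each list; a rule by level per length could not be applied without transcript lengths. Planned tests on summed carriers are not reported. SLC25A10, SLC25A21 and the less changed carriers of each role were named after their values were seen. Some items of the lists are not reported here.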

Additional observations from a re-analysis of the deposited data

Results flagged for a closer look

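In 3 of 76 groups of libraries examined for a sample far from the others, the gap to the nearest sample was large for the range of the group; chance gives about 1 in 20 such groups. SLC25A30 in control liver was 3776 in sheep 179 and 2235 to 2397 in the other 3 sheep. SLC25A51 in treated muscle was 539 in sheep 255 and 348 to 399.8 in the other 4 sheep. GSS, glutathione synthetase, in control muscle was 70.4 in sheep 131 and 42.4 to 48.8 in the other 4 sheep.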

How the results depend on the processing

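Of the summary values recomputed for the carriers 294 stayed near their main value and 26 moved further. Counts of carriers had to stay within 1.5 times, and a permutation p on its side of 0.05. Family medians and sums had to stay within the SD between libraries of a group. Of the single-gene values 568 kept direction and side of the threshold, and 4 passed the threshold in the alternative alone. None of these single-gene values changed sign. The balance of the tissue difference did turn, at 15 higher and 11 lower with control libraries only and 14 and 11 without sheep 63, against 13 and 14. It also turned without sheep 48 or 132 (13 and 12 each), 185 (15 and 13) or 255 (14 and 13). Without sheep 179 or 233 it was even, at 13 and 13 or 14 and 14. The median difference of all genes, near 0, also changed sign: in liver 0.0032, but -0.02 with TMM scaling and -0.07 without a filter, and in muscle -0.01, but 0.0061 and 0.04. Carriers lower past the adjusted threshold in liver numbered 0 in the main fit. The number was 1, in each case SLC25A45, with array weights, with all libraries in 1 fit and with DESeq2. Over all 13640 genes these fits called 2, 9 and 32, against 1 in the main fit. Carriers higher in liver at an unadjusted p under 0.05 numbered 0, but 1 with array weights. Over all genes 248 lay higher, but 694 with array weights. Leaving out 1 liver library gave 4 to 8 lower and 0 to 2 higher carriers, and a family median of -0.35 to -0.058. Over all genes those fits gave 195 to 613 lower and 191 to 543 higher. In muscle 1 of 38 carriers passed the adjusted threshold with DESeq2, SLC25A29. There DESeq2 called 252 of all 12966 genes, against 1 in the main fit. Carriers at an unadjusted p under 0.05 in muscle numbered 3 higher and 1 lower with all libraries in 1 fit, and 1 lower with TMM scaling. All genes gave 479 higher and 386 lower in that 1 fit, and 750 lower with TMM scaling. Leaving out 1 muscle library gave 2 to 5 higher and 1 to 4 lower carriers, and 781 to 1064 higher and 650 to 1164 lower of all genes. For the difference of effects, leaving out 1 sheep gave 1 to 3 higher and 4 to 8 lower carriers. Of all genes, 180 to 722 were higher and 180 to 739 lower there. The cause of these changes was not tested. With the sheep as a replicate block, the difference of effects again had 7 lower and 1 higher carriers and the tissue difference 14 higher and 15 lower in liver, so the pairing moved neither count by more than 1.5 times. SLC25A45 rests on 55 reads over all treated livers.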
